A study of Mus musculus with 9 samples.

Results

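Igf2, H19 and 8 further genes of the insulin-like growth factor (IGF) axis were followed across 9 RNA-seq libraries of mouse embryonic stem (ES) cells. The 10 genes were taken by symbol from the deposited gene counts (Igf2, H19, Igf2r, Igf1r, Insr, Igfbp2, Igfbp4, Igf2bp1, Igf2bp2 and Igf2bp3), out of 40213 symbols in all. All 10 had enough counts to be tested, among 16562 tested symbols. The EWS-OCT4 group held 3 libraries of a stable Niwa line that carries EWS-OCT4, in which the pluripotency factor OCT4 is joined to EWS, an RNA-binding protein. The OCT4 group held 3 libraries of a stable Niwa line that carries OCT4. J1, a widely used ES cell line, gave the other 3 libraries. Every line grew in ES cell medium with LIF, the cytokine that sustains ES cell self-renewal. The stable lines received 1 µg/ml doxycycline to lower their own OCT4, and the labels do not say whether J1 received it. The series asks whether the fusion can stand in for OCT4 in self-renewal.

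The labels name 1 cell line per group and do not say whether its libraries came from separate cultures or clones. What the p-values weigh is thus library-to-library spread alone, and that spread may be technical. The OCT4 and EWS-OCT4 lines differ in the construct, and both differ from J1 in the construct, the host line and possibly the drug. In the comparisons with J1 these cannot be told apart. With 1 line per construct, the construct and the line or clone cannot be told apart between EWS-OCT4 and OCT4 cells either. Library totals ran from 21149358 to 24786305 counts. Pou5f1, which encodes OCT4, averaged 26.8 ± 2.11 CPM (counts per 1000000, scaled by TMM) in EWS-OCT4 libraries, 165 ± 2.61 CPM in OCT4 libraries and 568 ± 61.8 CPM in J1 libraries (SD, n = 3 each). Counts of the mouse gene and of an introduced copy cannot be told apart in these files. The summed CPM of 10 ES cell markers was 3442 to 3540 in EWS-OCT4 libraries, 3141 to 3200 in OCT4 libraries and 4682 to 5090 in J1 libraries, with no marker at 0 in any group. The 10 markers, all tested, include Pou5f1 and went in both directions. At adjusted p under 0.05 (edgeR), 4 were higher and 2 lower in EWS-OCT4 than in OCT4 cells. Against J1, 2 were higher and 5 lower in EWS-OCT4 cells, and 2 higher and 7 lower in OCT4 cells. Over all tested genes the shares higher and lower were 31.9% and 34.6%, 30.3% and 31.6%, and 34.3% and 32.7% in those comparisons.

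Igf2 encodes a fetal growth factor and is expressed mainly from the paternal chromosome. H19, its neighbour on distal chromosome 7, is a long noncoding RNA expressed mainly from the maternal chromosome, and both genes use shared enhancers under an imprinting control region bound by CTCF. Igf2 signals through Igf1r and Insr and is cleared by Igf2r, IGF-binding proteins (Igfbp) hold the ligand outside the cell, and the Igf2bp proteins bind RNA inside it. Cultured ES cell lines are known to vary in imprinted gene expression. Parental alleles were not analysed here.

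The Igf2 locus is shown through 2 of the 4 Igf2 start sites in the RefSeq promoter table for build GRCm38.p6, because Igf2 had the largest fold changes of the 10 genes in both comparisons with J1. Each window holds 300 bases on the minus strand, from 250 before to 50 after the start, and capitals mark the GC box letters GGGCGG or their reverse complement CCGCCC. Start site 3 lies in chr7:142658755-142659054 and start site 4 in chr7:142657447-142657746. The window of Igfbp2 start site 1, the first of 2 in the table, on the plus strand at chr1:72824230-72824529, is shown because Igfbp2 was the other member with fold changes of at least 2 in all 3 comparisons.
Igf2 start site 3: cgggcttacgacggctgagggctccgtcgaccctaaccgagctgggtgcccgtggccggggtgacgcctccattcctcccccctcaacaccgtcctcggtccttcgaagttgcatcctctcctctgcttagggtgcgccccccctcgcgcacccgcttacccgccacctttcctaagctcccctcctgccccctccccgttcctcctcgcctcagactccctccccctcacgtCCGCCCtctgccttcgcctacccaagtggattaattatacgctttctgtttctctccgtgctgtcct
Igf2 start site 4: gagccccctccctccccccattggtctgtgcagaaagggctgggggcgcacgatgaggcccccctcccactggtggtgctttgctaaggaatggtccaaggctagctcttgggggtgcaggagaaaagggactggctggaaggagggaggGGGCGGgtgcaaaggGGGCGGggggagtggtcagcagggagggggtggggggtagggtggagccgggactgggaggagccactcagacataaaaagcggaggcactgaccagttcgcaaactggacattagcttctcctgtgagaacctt
Igfbp2 start site 1: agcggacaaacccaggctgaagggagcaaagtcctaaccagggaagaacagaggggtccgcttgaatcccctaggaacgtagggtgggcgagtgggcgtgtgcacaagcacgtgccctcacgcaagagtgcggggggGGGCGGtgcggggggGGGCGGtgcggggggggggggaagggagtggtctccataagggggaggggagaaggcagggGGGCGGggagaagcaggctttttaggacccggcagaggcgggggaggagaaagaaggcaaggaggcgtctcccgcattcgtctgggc

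Among the Igf2 and Igfbp2 windows, those shown are the ones with GC boxes, 1 and 2 for Igf2 and 3 for Igfbp2, searched on both strands. The windows of Igf1r, Igf2bp2 and Igf2r, also not shown, hold 2, 2 and 3 GC boxes, and those of Igf2bp3 and Igfbp4 hold 0. Igf2 start sites 1 and 2 and Igfbp2 start site 2, which are not shown, hold 0, and 35.7% of the 32851 windows in the table hold at least 1. The octamer ATGCAAAT, a letter pattern that OCT4 is known to bind, is in none of the windows of the members, and 1.74% of all windows hold it. The Igf2 windows shown carry 24 and 7 CpG, and those of start sites 1 and 2 carry 2 and 14 CpG dinucleotides, against a median of 7 over all windows. Windows were matched for 7 of the 10 members; H19, Insr and Igf2bp1 are named only. The gene counts do not separate Igf2 start sites, so the values below sum over them.

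H19 and Igf2 also carry microRNAs, miR-675 within H19 and miR-483 within Igf2, whose mature RefSeq sequences are shown because they are products of the same transcripts. Capitals mark the seed, bases 2 to 8, and no pair among the 4 shares it. They lie on the minus strand of GRCm38.p6 at chr7:142577112-142577133, chr7:142577078-142577099, chr7:142654968-142654989 and chr7:142654932-142654952, in the order printed.
mmu-miR-675-5p: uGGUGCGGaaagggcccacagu
mmu-miR-675-3p: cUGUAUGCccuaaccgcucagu
mmu-miR-483-5p: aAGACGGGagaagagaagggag
mmu-miR-483-3p: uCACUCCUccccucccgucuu
The symbols Mir675 and Mir483 are listed with 0 counts in all 9 libraries.

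Igf2 was abundant in OCT4 cells, intermediate in EWS-OCT4 cells and very low in J1 cells. It reached 85.4, 96.2 and 99.9 CPM in the EWS-OCT4 libraries, 500.0, 508 and 588 CPM in the OCT4 libraries and 1.28, 0.558 and 0.799 CPM in the J1 libraries. The 3 groups did not overlap. The J1 values rest on 32, 14 and 17 counts, against 1778 to 2373 counts in EWS-OCT4 libraries and 10837 to 14013 counts in OCT4 libraries. Ranked by mean CPM among the 40213 symbols, Igf2 stood at 2132 in EWS-OCT4, 196 in OCT4 and 14113 in J1 cells.

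Igf2 was 5.67-fold lower in EWS-OCT4 than in OCT4 cells (log2 fold change -2.50, SE 0.10, adjusted p = 1.55e-12 from the edgeR quasi-likelihood test, Benjamini-Hochberg over all tested genes, as for every adjusted p below). Against J1 it was 106-fold higher in EWS-OCT4 cells (log2 fold change 6.72, SE 0.159, adjusted p = 4.79e-15). It was 599-fold higher in OCT4 than in J1 cells (log2 fold change 9.23, SE 0.159, adjusted p = 7.69e-17). Among all tested genes the fold change of Igf2 ranked 23 from the top for EWS-OCT4 against J1 and 6 from the top for OCT4 against J1. Both of these comparisons use the same J1 libraries. In bulk RNA, a change in the share of cells that express a gene and a change in RNA per cell cannot be told apart.

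H19 had its high level in OCT4 cells alone, with the EWS-OCT4 libraries below J1. It stood at 20.9, 19.8 and 20.8 CPM in EWS-OCT4 libraries, 524, 614 and 660.0 CPM in OCT4 libraries and 25.9, 51.2 and 42.4 CPM in J1 libraries. The groups did not overlap, although the lowest J1 library was close to the EWS-OCT4 libraries and the J1 libraries differed among themselves more, relative to their mean, than those of the stable lines. H19 was 29.3-fold lower in EWS-OCT4 than in OCT4 cells (log2 fold change -4.87, SE 0.2495, adjusted p = 5.66e-07). It was 1.94-fold lower in EWS-OCT4 than in J1 cells (log2 fold change -0.96, SE 0.233, adjusted p = 0.00767) and 15.05-fold higher in OCT4 than in J1 cells (log2 fold change 3.91, SE 0.235, adjusted p = 1.39e-06). Igf2 and H19 thus had opposite signs in EWS-OCT4 against J1, where Igf2 was higher and H19 lower, and the same sign in the other comparisons.

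**Figure D1:**
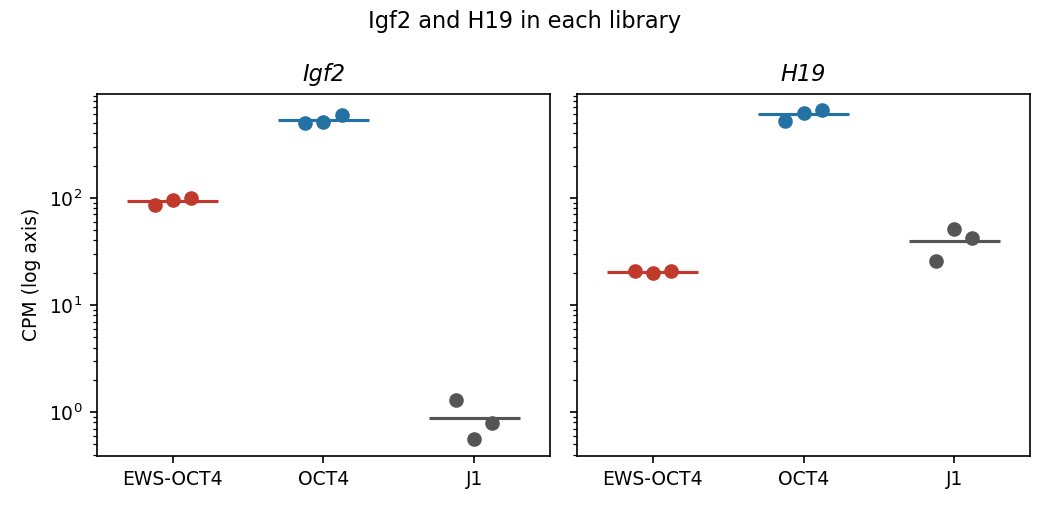
CPM of Igf2 and H19 in each library on a log axis, with 1 point per library, a line at each group mean and the EWS-OCT4, OCT4 and J1 groups from left to right. Igf2 lies between 85.4 and 99.9 CPM in EWS-OCT4, above 499 in OCT4 and below 1.29 in J1 libraries, whereas the EWS-OCT4 libraries are the lowest for H19.

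The ratio of Igf2 to H19 within a library does not depend on library size. It was 4.10, 4.86 and 4.80 in the EWS-OCT4 libraries, 0.954, 0.828 and 0.891 in the OCT4 libraries and 0.0495, 0.0109 and 0.0188 in the J1 libraries. Igf2 thus gave several counts per H19 count in EWS-OCT4 cells, about equal counts in OCT4 cells and few in J1 cells, with no overlap between groups and with no allowance for the length of the 2 transcripts. Igf2 made up 82.0% ± 1.43 of the counts of both genes in EWS-OCT4, 47.1% ± 1.76 in OCT4 and 2.55% ± 1.92 in J1 libraries (SD, n = 3 each). Per kilobase of merged exon the ratio averaged 1.97 ± 0.182 in EWS-OCT4, 0.383 ± 0.0270 in OCT4 and 0.0114 ± 0.00877 in J1 libraries (SD, n = 3 each).

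In log2 the mean ratio was 2.36 higher in EWS-OCT4 than in OCT4 cells, a 5.14-fold difference. It was 7.68 higher in EWS-OCT4 than in J1 cells and 5.32 higher in OCT4 than in J1 cells. Each of these gave p = 0.1 in a two-sided exact permutation test, the smallest p that 3 against 3 libraries allow. Over all ways to deal the 9 libraries into 3 groups of 3, groups took up 97.4% of the sum of squares of the log2 ratio (exact permutation p = 0.00357, the smallest that design allows). The J1 ratios rest on few Igf2 counts, with 95% Wilson-based intervals of 0.0348 to 0.0705, 0.00647 to 0.0183 and 0.0117 to 0.0303, which cover counting error only. The first J1 library stood above the others, and without it the log2 difference from J1 was 8.27 for EWS-OCT4 and 5.91 for OCT4, a shift of just over 1.5-fold.

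**Figure D2:**
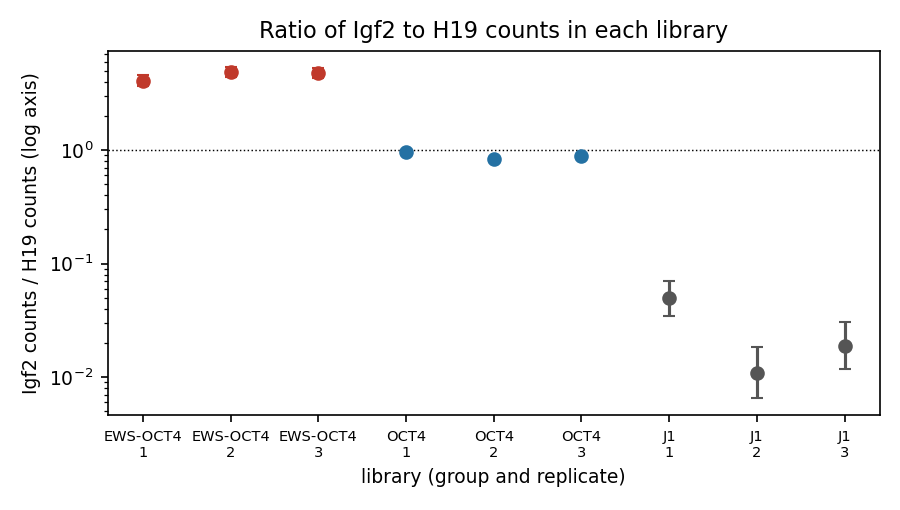
Ratio of Igf2 counts to H19 counts in each library on a log axis, with bars for 95% counting intervals, a dotted line at equal counts and the EWS-OCT4, OCT4 and J1 groups from left to right. The EWS-OCT4 libraries lie between 4.10 and 4.86, the OCT4 libraries between 0.828 and 0.954 and the J1 libraries between 0.0109 and 0.0495.

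Genes beside Igf2 and H19 on distal chromosome 7 changed in both directions. Of 23 neighbours listed, 18 were tested: 4 were higher and 10 lower in EWS-OCT4 than in OCT4 cells, 5 higher and 3 lower in EWS-OCT4 than in J1 cells, and 11 higher and 2 lower in OCT4 than in J1 cells. Over all tested genes the shares higher and lower were 31.9% and 34.6%, 30.3% and 31.6%, and 34.3% and 32.7% in those comparisons. The median log2 fold changes were -0.29, 0.03 and 0.42 in that order of comparisons, beside -0.04, 0.00 and 0.01 over all tested genes. Tnnt3, a troponin of fast skeletal muscle beyond H19, averaged 0.246 ± 0.171 CPM in EWS-OCT4, 11.3 ± 1.60 CPM in OCT4 and 0.0935 ± 0.101 CPM in J1 libraries. Its log2 fold change was -5.47 for EWS-OCT4 against OCT4 (SE 0.315, adjusted p = 1.03e-10) and 6.77 for OCT4 against J1 (SE 0.363, adjusted p = 3.10e-11). It was not called for EWS-OCT4 against J1 (1.31, SE 0.695, adjusted p = 0.112). Mrpl23, a mitochondrial ribosomal protein gene between Tnnt3 and H19, averaged 29.8 ± 0.179 CPM in EWS-OCT4, 38.3 ± 2.03 CPM in OCT4 and 31.5 ± 2.42 CPM in J1 libraries, with log2 fold changes of -0.36 for EWS-OCT4 against OCT4 (SE 0.0778, adjusted p = 0.000586) and 0.28 for OCT4 against J1 (SE 0.0774, adjusted p = 0.00370).

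Cdkn1c, a growth-restraining cyclin-dependent kinase inhibitor of the adjacent imprinted domain, was higher in both stable lines than in J1. It averaged 31.1 ± 0.995 CPM in EWS-OCT4, 20.4 ± 1.09 CPM in OCT4 and 3.88 ± 0.498 CPM in J1 libraries, with log2 fold changes against J1 of 3.00 (SE 0.105, adjusted p = 2.48e-13) for EWS-OCT4 and 2.39 (SE 0.107, adjusted p = 2.39e-12) for OCT4. Phlda2, another imprinted growth restrainer of that domain, was lower in OCT4 cells at 13.7 ± 1.49 CPM, against 24.6 ± 4.38 CPM in J1 libraries, and stood at 23.0 ± 0.893 CPM in EWS-OCT4 libraries. Kcnq1ot1, the noncoding RNA of that domain, averaged 48.0 ± 1.53 CPM in EWS-OCT4, 63.5 ± 7.68 CPM in OCT4 and 51.7 ± 4.68 CPM in J1 libraries. Dhcr7, a cholesterol synthesis gene at the far edge of the list, was lower in EWS-OCT4 than in OCT4 cells and lower in both than in J1 cells, at 28.3 ± 0.577, 41.9 ± 2.15 and 63.4 ± 2.16 CPM in EWS-OCT4, OCT4 and J1 libraries. Igf2os, antisense to Igf2, had 1.58 ± 0.302 CPM in EWS-OCT4, 3.09 ± 0.135 CPM in OCT4 and 0.0533 ± 0.0462 CPM in J1 libraries, and since strand in the counting is not given, its reads and those of Igf2 cannot be told apart (SD, n = 3 for every mean here).

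**Figure D3:**
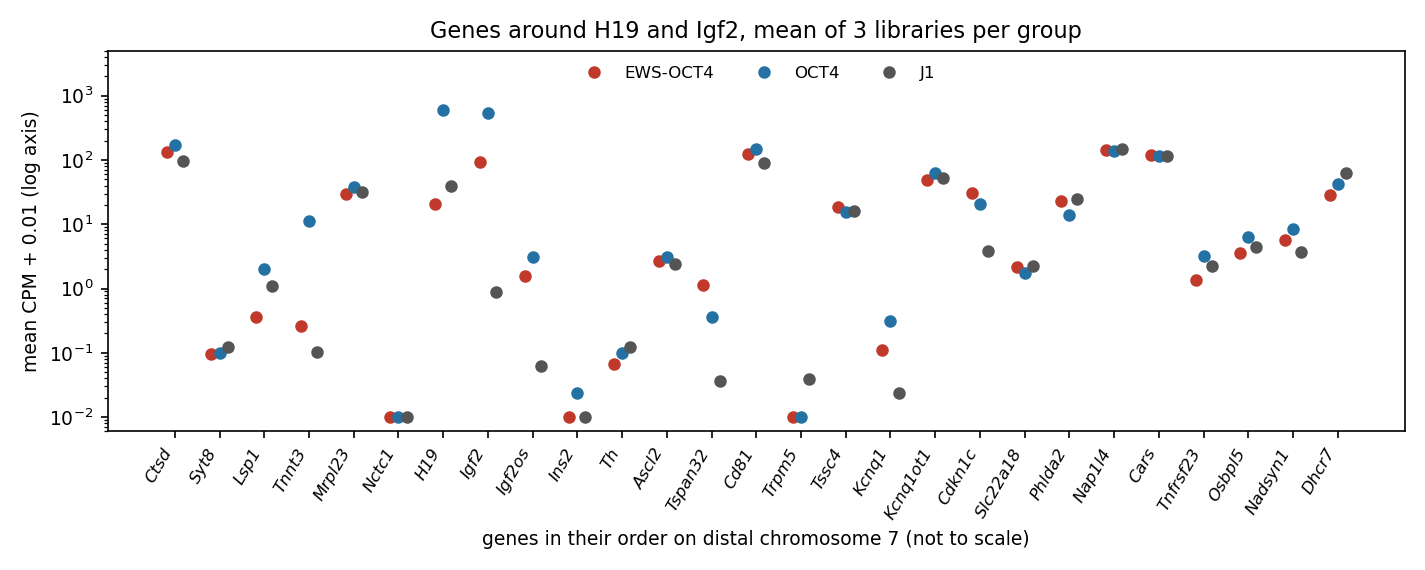
Mean CPM of genes along distal chromosome 7 in their GENCODE M21 order, on a log axis after adding 0.01, for EWS-OCT4, OCT4 and J1 libraries (n = 3 each). Igf2, H19 and Tnnt3 are far higher in OCT4 than in J1 libraries, while Mrpl23 between them lies within 29.8 to 38.3 CPM in all 3 groups.

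Of the 10 members, 1 was higher and 7 were lower in EWS-OCT4 than in OCT4 cells, where 66.5% of all tested genes were called, 31.9% higher and 34.6% lower. Against J1, 2 members were higher and 7 lower in EWS-OCT4 cells, where 61.9% of tested genes were called, 30.3% higher and 31.6% lower. In OCT4 against J1 cells 3 members were higher and 4 lower, where 67.0% of tested genes were called, 34.3% higher and 32.7% lower. Of those called, the members that differed at least 2-fold were 0 higher and 4 lower in EWS-OCT4 against OCT4 (8.54% and 15.8% of all tested genes), 1 higher and 4 lower in EWS-OCT4 against J1 (8.10% and 12.5%), and 3 higher and 1 lower in OCT4 against J1 (15.0% and 11.5%). Library values did not overlap between the groups for 9, 9 and 6 members in that order of comparisons, against 72.8%, 65.7% and 68.4% of all tested genes. The members' median log2 fold changes were -0.54, -0.87 and -0.18, beside -0.04, 0.00 and 0.01 over all tested genes. The sizes of the changes and their directions are given gene by gene.

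Among the receptors, Igf2r, the scavenger receptor that delivers Igf2 to lysosomes, differed little. Its level was 203, 201 and 191 CPM in EWS-OCT4 libraries, 178, 182 and 169 CPM in OCT4 libraries and 210.4, 181 and 213 CPM in J1 libraries. The EWS-OCT4 libraries lay above the OCT4 libraries, and the J1 libraries overlapped both. Igf2r was not called for EWS-OCT4 against OCT4 (log2 fold change 0.17, 95% interval 0.03 to 0.31, adjusted p = 0.0502) or against J1 (-0.02, 95% interval -0.16 to 0.12, adjusted p = 0.794). It was slightly lower in OCT4 than in J1 cells (log2 fold change -0.19, SE 0.0720, adjusted p = 0.0272). This call is lost with only those 6 libraries in the fit (adjusted p = 0.0549), without OCT4 replicate 1 (adjusted p = 0.0561) or 3 (adjusted p = 0.110) and without J1 replicate 3 (adjusted p = 0.0745).

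Igf2r lies in an imprinted domain on chromosome 17 with the noncoding RNA Airn, which had 16, 13 and 11 counts in all over the EWS-OCT4, OCT4 and J1 libraries. Of 13 listed neighbours 8 were tested, of which 5 were higher and 1 lower in EWS-OCT4 than in OCT4 cells, 1 higher and 1 lower in EWS-OCT4 than in J1 cells, and 1 higher and 6 lower in OCT4 than in J1 cells, beside 66.5%, 61.9% and 67.0% of all tested genes called in those comparisons. Map3k4, a stress-pathway kinase, went the other way from most of them in both comparisons with OCT4 cells, at 67.3 ± 2.01 CPM in EWS-OCT4, 122 ± 1.66 CPM in OCT4 and 69.5 ± 5.32 CPM in J1 libraries (SD, n = 3 each). It was lower in EWS-OCT4 than in OCT4 cells (log2 fold change -0.85, SE 0.0680, adjusted p = 6.06e-09) and higher in OCT4 than in J1 cells (0.81, SE 0.0678, adjusted p = 9.34e-09).

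Igf1r, the tyrosine kinase receptor for Igf1 and Igf2, was modestly lower in EWS-OCT4 cells. It had 41.5, 45.5 and 39.7 CPM in EWS-OCT4 libraries, 47.8, 58.5 and 43.3 CPM in OCT4 libraries and 50.4, 61.5 and 60.2 CPM in J1 libraries. All EWS-OCT4 libraries lay below J1, and the OCT4 libraries spanned the range between. Igf1r was lower in EWS-OCT4 than in J1 cells (log2 fold change -0.44, SE 0.104, adjusted p = 0.00151). It was not called for EWS-OCT4 against OCT4 (-0.24, 95% interval -0.44 to -0.03, adjusted p = 0.0533) or for OCT4 against J1 (-0.20, SE 0.103, adjusted p = 0.0936).

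Insr, the insulin receptor, of which an isoform also binds Igf2, had 17.5, 18.9 and 14.9 CPM in EWS-OCT4 libraries, 25.0, 24.4 and 28.8 CPM in OCT4 libraries and 27.6, 31.1 and 29.7 CPM in J1 libraries. The EWS-OCT4 libraries were the lowest, and the OCT4 and J1 libraries overlapped. Insr was lower in EWS-OCT4 than in OCT4 cells (log2 fold change -0.61, SE 0.0995, adjusted p = 3.63e-05) and lower than in J1 cells (-0.78, SE 0.0987, adjusted p = 2.46e-06). For OCT4 against J1 it was not called (-0.17, 95% interval -0.36 to 0.01, adjusted p = 0.116). Insr lies on chromosome 8, whose 863 tested genes had a median log2 fold change of -0.44 in EWS-OCT4 and -0.47 in OCT4 cells against J1, and 0.01 in EWS-OCT4 against OCT4 cells. Less the chromosome median, the change of Insr against J1 was -0.34 in EWS-OCT4 and 0.29 in OCT4 cells. The part of the chromosome-wide difference in these results was not tested.

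Among the binding proteins, Igfbp2, a secreted carrier of IGFs that ES cells make in quantity, was lowest in EWS-OCT4 and highest in OCT4 cells. It had 102, 110 and 116 CPM in EWS-OCT4 libraries, 584, 640.5 and 641 CPM in OCT4 libraries and 279, 326 and 285 CPM in J1 libraries. The 3 groups were far apart. Igfbp2 was 5.69-fold lower in EWS-OCT4 than in OCT4 cells (log2 fold change -2.51, SE 0.0806, adjusted p = 5.42e-14). It was 2.71-fold lower in EWS-OCT4 than in J1 cells (-1.44, SE 0.0783, adjusted p = 6.85e-11) and 2.10-fold higher in OCT4 than in J1 cells (1.07, SE 0.0766, adjusted p = 1.13e-09).

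Igfbp4, a carrier known to restrain IGF action until it is cleaved, was low throughout, at 4.23, 3.81 and 3.54 CPM in EWS-OCT4 libraries, 9.27, 9.16 and 9.03 CPM in OCT4 libraries and 17.3, 16.1 and 13.5 CPM in J1 libraries. The groups did not overlap and the order was EWS-OCT4, OCT4, J1 from low to high. It was 2.38-fold lower in EWS-OCT4 than in OCT4 cells (log2 fold change -1.25, SE 0.129, adjusted p = 1.66e-07) and 4.07-fold lower than in J1 cells (-2.02, SE 0.124, adjusted p = 3.13e-10). OCT4 cells were 1.71-fold lower than J1 cells (-0.77, SE 0.112, adjusted p = 8.61e-06). Igfbp4 and Igf2bp1 lie on chromosome 11, whose 1324 tested genes had a median of -0.51 in EWS-OCT4 and -0.46 in OCT4 cells against J1. Less that median, Igfbp4 stood at -1.51 in EWS-OCT4 and -0.31 in OCT4 cells, and the part of the chromosome-wide difference was not tested.

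The Igf2bp RNA-binding proteins, first isolated on Igf2 mRNA, moved apart. Igf2bp1, the main member in these cells, had 499, 507 and 476 CPM in EWS-OCT4 libraries, 324, 369.7 and 317 CPM in OCT4 libraries and 305, 343 and 347 CPM in J1 libraries. The EWS-OCT4 libraries were the highest, while OCT4 and J1 libraries overlapped. Igf2bp1 was 1.47-fold higher in EWS-OCT4 than in OCT4 cells (log2 fold change 0.55, SE 0.0758, adjusted p = 5.18e-06) and 1.49-fold higher than in J1 cells (0.57, SE 0.0758, adjusted p = 4.28e-06). It was not called for OCT4 against J1 (0.02, 95% interval -0.13 to 0.17, adjusted p = 0.820). Less the chromosome 11 median, the log2 differences from J1 were 1.08 for EWS-OCT4 and 0.48 for OCT4 cells.

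Igf2bp2 and Igf2bp3 were lower in EWS-OCT4 than in OCT4 cells and both stable lines lay below J1. Igf2bp2 had 33.4, 34.0 and 32.8 CPM in EWS-OCT4 libraries, 44.8, 43.9 and 42.5 CPM in OCT4 libraries and 90.3, 103 and 102 CPM in J1 libraries. Igf2bp3 had 29.98, 26.6 and 29.4 CPM in EWS-OCT4 libraries, 41.2, 40.9 and 37.1 CPM in OCT4 libraries and 65.1, 69.4 and 68.5 CPM in J1 libraries. Neither gene overlapped between any pair of groups. For EWS-OCT4 against OCT4 the log2 fold changes were -0.39 (SE 0.0718, adjusted p = 0.000128) for Igf2bp2 and -0.47 (SE 0.0756, adjusted p = 2.98e-05) for Igf2bp3. Against J1, Igf2bp2 had -1.56 in EWS-OCT4 (SE 0.0709, adjusted p = 7.61e-12) and -1.17 in OCT4 cells (SE 0.0696, adjusted p = 9.78e-11), and Igf2bp3 had -1.24 (SE 0.0746, adjusted p = 2.43e-10) and -0.77 (SE 0.0730, adjusted p = 4.63e-08).

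Per kilobase of merged exon, Igf2bp1 made up 86.4% ± 0.521 of the summed Igf2bp level in EWS-OCT4, 76.3% ± 1.35 in OCT4 and 61.3% ± 0.455 in J1 libraries (SD, n = 3 each). The share of Igf2bp2 was 7.65% in EWS-OCT4, 13.01% in OCT4 and 23.8% in J1 libraries, and that of Igf2bp3 was 5.96%, 10.7% and 14.9% in EWS-OCT4, OCT4 and J1 libraries. Library shares of Igf2bp1 ran from 85.9% to 87.0% in EWS-OCT4, 75.1% to 77.7% in OCT4 and 61.0% to 61.8% in J1 libraries, so that no groups overlapped.

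**Figure D4:**
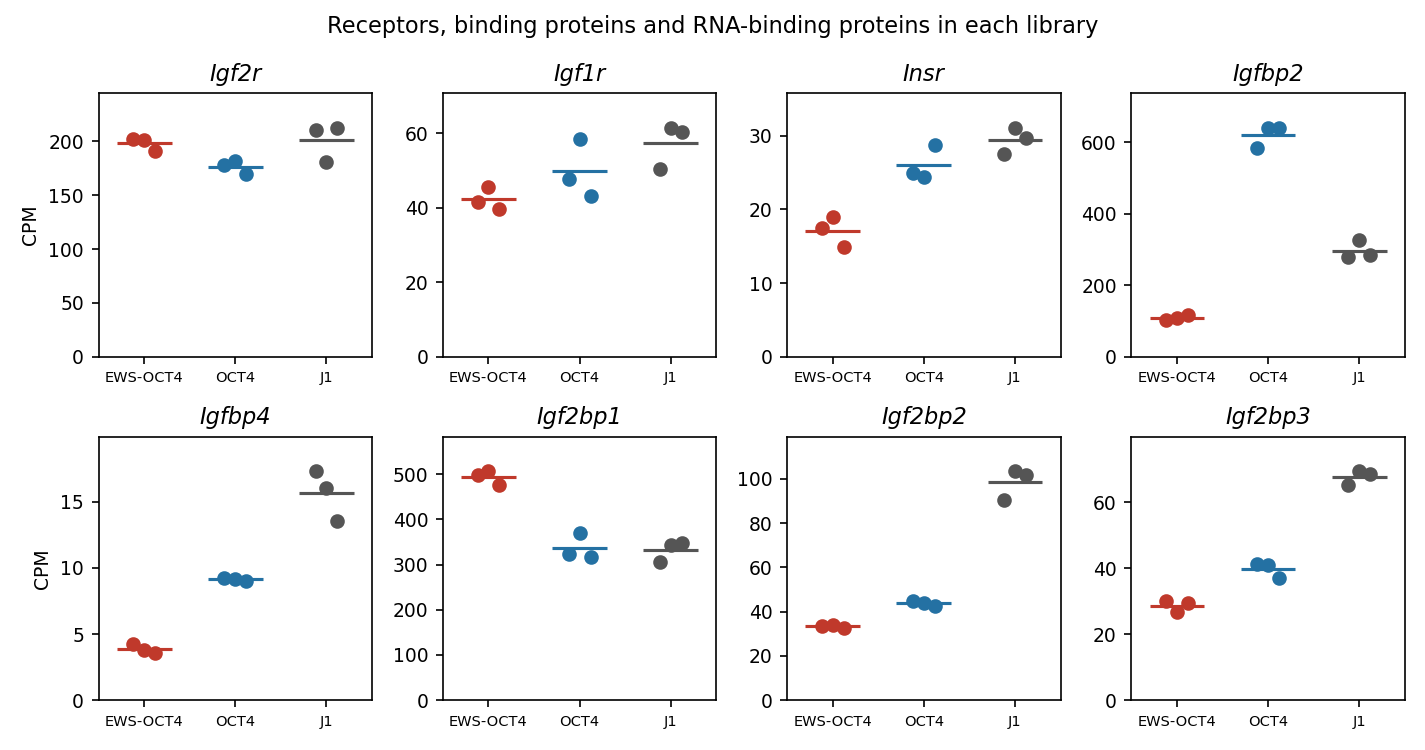
CPM of the 8 members other than Igf2 and H19 in each library, with 1 panel per gene, a line at each group mean, linear axes from 0 and the EWS-OCT4, OCT4 and J1 groups from left to right. Igf2r and Igf1r libraries overlap between some groups, while Insr is lowest in EWS-OCT4 and overlaps only between OCT4 and J1 libraries. Igfbp2 peaks in OCT4, Igf2bp1 is highest in EWS-OCT4, and Igfbp4, Igf2bp2 and Igf2bp3 are lowest in EWS-OCT4 and highest in J1 libraries.

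**Figure D5:**
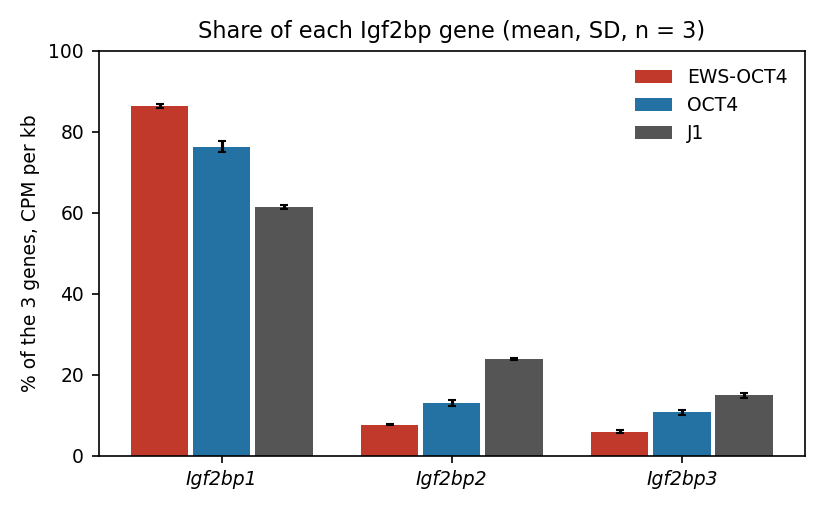
Mean share of Igf2bp1, Igf2bp2 and Igf2bp3 in their summed CPM per kilobase, in percent, in EWS-OCT4, OCT4 and J1 libraries, with SD as error bars (n = 3 each). Igf2bp1 averages 86.4% in EWS-OCT4, 76.3% in OCT4 and 61.3% in J1 libraries.

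Apart from the Igf2 and H19 counts above, levels of different genes were set beside each other as CPM per kilobase of merged exon. In EWS-OCT4 cells the order from high to low was Igfbp2 (59.1), Igf2bp1 (51.0), Igf2r (21.3), Igf2 (16.4), H19 (8.33), Igf2bp2 (4.51), Igf2bp3 (3.51), Igf1r (2.52), Insr (1.246) and Igfbp4 (0.873 CPM per kilobase), with no overlap between neighbours in that order. In OCT4 cells it was Igfbp2 (337), H19 (244), Igf2 (93.0), Igf2bp1 (34.8), Igf2r (18.97), Igf2bp2 (5.91), Igf2bp3 (4.87), Igf1r (2.97), Igfbp4 (2.07) and Insr (1.90 CPM per kilobase), where the library ranges of the last pair overlapped. In J1 cells it was Igfbp2 (160.4), Igf2bp1 (34.3), Igf2r (21.6), H19 (16.2), Igf2bp2 (13.3), Igf2bp3 (8.30), Igfbp4 (3.54), Igf1r (3.42), Insr (2.14) and Igf2 (0.154 CPM per kilobase). H19 overlapped with Igf2r and with Igf2bp2 there, and Igfbp4 with Igf1r. Per kilobase of the longest transcript instead, Igf2bp2 (19.9) stood above H19 (17.4) and Igf1r (5.03) above Igfbp4 (4.08) in J1 cells, and Igf2bp3 (9.14) above Igf2bp2 (8.83) and Insr (2.79) above Igfbp4 (2.39) in OCT4 cells. With either length Igfbp2 headed the order in every group, while Igf2 stood at place 4 in EWS-OCT4, 3 in OCT4 and 10 in J1 cells.

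Other ligands of the axis were nearly silent. Igf1 had 14 counts in all in EWS-OCT4, 16 in OCT4 and 32 in J1 libraries, Ins1 had 0 in every library and Ins2 had 1 in all. Of 18 other ligand and binding-protein genes listed, 11 were tested, of which 4 were higher and 4 lower in EWS-OCT4 than in OCT4 cells, 4 higher and 4 lower in EWS-OCT4 than in J1 cells, and 3 higher and 4 lower in OCT4 than in J1 cells, beside 66.5%, 61.9% and 67.0% of all tested genes called in those comparisons. Igfbp3, the main carrier of IGFs in serum, averaged 14.8 ± 1.54 CPM in EWS-OCT4, 5.09 ± 1.24 CPM in OCT4 and 15.9 ± 0.558 CPM in J1 libraries. Igfbpl1, an Igfbp-like secreted protein, had the same shape, with 5.14 ± 0.918, 1.13 ± 0.0861 and 4.36 ± 0.269 CPM in EWS-OCT4, OCT4 and J1 libraries. In EWS-OCT4 against OCT4 cells Igfbp3 rose by a log2 fold change of 1.54 (SE 0.139, adjusted p = 2.94e-08) and Igfbpl1 by 2.18 (SE 0.192, adjusted p = 2.12e-08), and neither was called against J1 (adjusted p = 0.510 and 0.223). Igfbp7 was lower in EWS-OCT4 cells at 1.90 ± 0.186 CPM, against 5.79 ± 1.35 CPM in OCT4 libraries, with 0.837 ± 0.111 CPM in J1 libraries. Htra1, a secreted protease that cleaves IGF-binding proteins, was higher than in J1 in both stable lines, at 48.5 ± 2.27 CPM in EWS-OCT4 and 52.3 ± 2.61 CPM in OCT4 libraries, against 7.01 ± 0.712 CPM in J1 libraries (SD, n = 3 each throughout).

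All 35 listed genes of receptor signalling were tested, of which 11 were higher and 12 lower in EWS-OCT4 than in OCT4 cells, 11 higher and 15 lower in EWS-OCT4 than in J1 cells, and 14 higher and 13 lower in OCT4 than in J1 cells, beside 66.5%, 61.9% and 67.0% of all tested genes called in those comparisons. Their median log2 fold changes were -0.01, -0.09 and 0.12, beside -0.04, 0.00 and 0.01 over all tested genes. Irs2, the docking protein of the insulin and IGF receptors, averaged 22.8 ± 1.04 CPM in EWS-OCT4, 53.2 ± 2.11 CPM in OCT4 and 10.1 ± 0.562 CPM in J1 libraries. It was lower in EWS-OCT4 than in OCT4 cells (log2 fold change -1.22, SE 0.0764, adjusted p = 2.47e-10) and higher in both than in J1 cells (1.18 and 2.39 in EWS-OCT4 and OCT4, adjusted p = 2.48e-09 and 8.30e-14). Grb10, an imprinted adaptor that restrains receptor signalling, averaged 14.8 ± 0.710 CPM in EWS-OCT4, 7.56 ± 1.22 CPM in OCT4 and 3.01 ± 0.211 CPM in J1 libraries. It was called in all 3 comparisons, with log2 fold changes of 0.96 for EWS-OCT4 against OCT4 and 2.29 and 1.33 for EWS-OCT4 and OCT4 against J1.

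Akt1, a kinase central to this pathway, had 33.6 ± 0.196 CPM in EWS-OCT4, 27.1 ± 0.259 CPM in OCT4 and 10.3 ± 0.903 CPM in J1 libraries (SD, n = 3 each). It was slightly higher in EWS-OCT4 than in OCT4 cells (log2 fold change 0.31, SE 0.0780, adjusted p = 0.00195). Foxo3, a transcription factor that Akt holds in the cytoplasm, was lower in EWS-OCT4 cells at 55.9 ± 0.572 CPM, against 129.6 ± 7.21 CPM in OCT4 libraries and 83.8 ± 3.29 CPM in J1 libraries. Tsc2, a brake on mTOR, was higher in EWS-OCT4 cells at 115 ± 1.51 CPM, against 71.5 ± 5.16 CPM in OCT4 libraries, with 111 ± 3.31 CPM in J1 libraries.

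All 17 genes of a list tied to methylation imprints were tested. The list mixes genes that set or keep imprints with TET enzymes, which do not, and with the imprinted gene Plagl1. Its counts thus do not measure imprint upkeep. Of the 17 genes, 13 were higher and 3 lower in EWS-OCT4 than in OCT4 cells, 11 higher and 3 lower in EWS-OCT4 than in J1 cells, and 3 higher and 10 lower in OCT4 than in J1 cells, beside 66.5%, 61.9% and 67.0% of all tested genes called in those comparisons. The median log2 fold changes were 0.65, 0.39 and -0.38 in that order, beside -0.04, 0.00 and 0.01 over all tested genes. Ctcf, which binds the Igf2-H19 control region, averaged 161 ± 3.82 CPM in EWS-OCT4, 111 ± 3.18 CPM in OCT4 and 149 ± 11.2 CPM in J1 libraries. Zfp57, a zinc finger protein that protects imprints, averaged 448 ± 17.7 CPM in EWS-OCT4, 249 ± 4.77 CPM in OCT4 and 325 ± 7.65 CPM in J1 libraries. Dppa3, known to guard imprints in the zygote, averaged 20.4 ± 1.47 CPM in EWS-OCT4, 3.74 ± 0.546 CPM in OCT4 and 16.98 ± 0.947 CPM in J1 libraries, and was higher in EWS-OCT4 than in OCT4 cells (log2 fold change 2.44, SE 0.117, adjusted p = 7.13e-12). Against that direction, the de novo methyltransferase Dnmt3a was lower, at 46.0 ± 1.22 CPM in EWS-OCT4, 87.7 ± 2.53 CPM in OCT4 and 228 ± 9.23 CPM in J1 libraries. The related Dnmt3b and Dnmt3l were higher in EWS-OCT4 cells than in both other groups. Dnmt3b averaged 175 ± 0.243 CPM in EWS-OCT4, 87.0 ± 6.46 CPM in OCT4 and 87.5 ± 5.51 CPM in J1 libraries. Dnmt3l averaged 145 ± 2.59 CPM in EWS-OCT4, 58.1 ± 4.02 CPM in OCT4 and 109 ± 5.58 CPM in J1 libraries. Plagl1, an imprinted transcription factor known in mouse to act on Igf2 and H19, averaged 3.61 ± 0.377 CPM in EWS-OCT4, 14.4 ± 0.859 CPM in OCT4 and 42.0 ± 3.34 CPM in J1 libraries (SD, n = 3 each).

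Lin28 proteins block the let-7 microRNAs, which target Igf2bp, Igf1r and Hmga2 transcripts. Of 14 listed genes of that axis, all tested, 5 were higher and 3 lower in EWS-OCT4 than in OCT4 cells, 6 higher and 6 lower in EWS-OCT4 than in J1 cells, and 4 higher and 7 lower in OCT4 than in J1 cells, beside 66.5%, 61.9% and 67.0% of all tested genes called in those comparisons. Lin28a averaged 181 ± 3.03 CPM in EWS-OCT4, 55.6 ± 1.23 CPM in OCT4 and 142 ± 15.8 CPM in J1 libraries. Lin28b averaged 21.3 ± 1.87 CPM in EWS-OCT4, 4.30 ± 0.570 CPM in OCT4 and 37.5 ± 1.24 CPM in J1 libraries. Hmga2, a chromatin protein, was highest in OCT4 cells, with 14.4 ± 0.888 CPM in EWS-OCT4, 34.6 ± 2.69 CPM in OCT4 and 17.97 ± 0.362 CPM in J1 libraries (SD, n = 3 each). In EWS-OCT4 against OCT4 cells the log2 fold changes were 1.70 for Lin28a (SE 0.0775, adjusted p = 3.84e-12), 2.31 for Lin28b (SE 0.111, adjusted p = 7.47e-12) and -1.26 for Hmga2 (SE 0.0867, adjusted p = 8.77e-10).

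Summed markers of some other cell types also differed between the groups. The summed CPM of 14 trophoblast markers was 258 to 273 in EWS-OCT4, 563 to 603 in OCT4 and 152 to 185 in J1 libraries. Of the 12 tested, 8 were lower and 1 higher in EWS-OCT4 than in OCT4 cells, 8 higher and 1 lower in EWS-OCT4 than in J1 cells, and 10 higher and none lower in OCT4 than in J1 cells. Over all tested genes the shares higher and lower were 31.9% and 34.6%, 30.3% and 31.6%, and 34.3% and 32.7% in those comparisons. Hand1 was 2.14 ± 0.246 CPM in EWS-OCT4, 78.1 ± 8.71 CPM in OCT4 and 1.77 ± 0.251 CPM in J1 libraries (SD, n = 3 each), while the placental genes Tpbpa and Prl3d1 were at 0 in all 9 libraries. The sum of 12 mesoderm and muscle markers, which include Tnnt3, was 24.1 to 27.2 CPM in EWS-OCT4, 63.8 to 71.6 CPM in OCT4 and 27.1 to 32.4 CPM in J1 libraries. Most of the OCT4 sum came from Des, at 49.2 ± 1.78 CPM in OCT4 libraries. Of the 7 tested, 3 were higher and 3 lower in EWS-OCT4 than in OCT4 cells. Against J1, 2 were higher and 1 lower in EWS-OCT4 cells, and 6 higher and 1 lower in OCT4 cells. That of 12 feeder fibroblast markers was 232 to 251.1 CPM in EWS-OCT4, 277 to 296 CPM in OCT4 and 134 to 151 CPM in J1 libraries, with Vim at 216 ± 8.18 CPM in EWS-OCT4, 248 ± 13.9 CPM in OCT4 and 57.8 ± 2.35 CPM in J1 libraries (SD, n = 3 each). Of the 5 fibroblast markers tested, 5 were lower in EWS-OCT4 than in OCT4 cells, 1 (Vim) was higher and 4 lower in EWS-OCT4 than in J1 cells, and 1 (Vim) was higher and 2 lower in OCT4 than in J1 cells. The shares over all tested genes given for the trophoblast markers hold for the other lists of this paragraph too. Col1a1 averaged 2.81 ± 0.579 CPM in EWS-OCT4, 5.91 ± 0.603 CPM in OCT4 and 31.2 ± 3.19 CPM in J1 libraries (SD, n = 3 each), with Fap at 0 in every group, Dcn at 0 in EWS-OCT4 and J1, Lum at 0 in OCT4 and J1 and Twist2 at 0 in J1 libraries. The sum of 13 primitive and visceral endoderm markers was 12.5 to 14.5 CPM in EWS-OCT4, 29.5 to 30.3 CPM in OCT4 and 43.7 to 51.9 CPM in J1 libraries. Of the 10 tested, 1 was higher and 6 lower in EWS-OCT4 than in OCT4 cells. Against J1, 1 was higher and 7 lower in EWS-OCT4 cells, and 2 higher and 4 lower in OCT4 cells. The median log2 fold change of the 10 in OCT4 against J1 was 0.13, unlike the direction of the sum. The sum of 8 neural markers was 109.7 to 111 CPM in EWS-OCT4, 117 to 118 CPM in OCT4 and 97.1 to 121 CPM in J1 libraries, with Neurog2 at 0 in EWS-OCT4. Single neural markers went in both directions. Of the 5 tested, 2 were higher and 2 lower in EWS-OCT4 than in OCT4 cells. Against J1, 3 were higher and 2 lower in EWS-OCT4 cells, and 3 higher and 2 lower in OCT4 cells. The part of these cell types in the levels of Igf2, H19 and the other members was not tested.

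The genes most like Igf2 and H19 across the 9 libraries were found by the root mean square difference of centred log2 CPM, over the 10718 genes that averaged 5 CPM or more. For H19 they were Fxyd2 (0.31), Bgn (0.48), Kcnc4 (0.50), Parm1 (0.55) and Mbp (0.56), each high in OCT4 cells, as with Parm1 at 9.18 CPM in EWS-OCT4, 130.3 CPM in OCT4 and 8.03 CPM in J1 libraries on average. For Igf2 the nearest were farther away, Gm21312 (1.38), Mid1 (1.44), Rhox5 (1.53), Gata3 (1.55) and Xist (1.56). H19 itself differed from Igf2 by 3.202 on that scale. Rhox5 averaged 209.7 CPM in EWS-OCT4, 507 CPM in OCT4 and 10.5 CPM in J1 libraries. These likenesses are descriptions over 9 libraries of 3 groups, so that genes with the same log2 differences between groups score alike, whatever their level.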

How the data were processed

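Total RNA was extracted with RNAiso Plus and made into libraries with the CORALL V2 kit, per the labels' protocols. For each of the 9 libraries a table of unnormalized whole-number counts by gene symbol was deposited by the authors. GATK, Salmon, STAR, fastp and build GRCm39 appear in the submitters' processing notes, with no versions, roles or order. No source used here gives the gene annotation, the use of strand or the handling of molecular identifiers, so that counts of overlapping or antisense genes are uncertain.

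Sample titles gave the groups and the replicate numbers. The members and all gene lists were chosen with earlier results of these data known. All 9 libraries, of 21149358 to 24786305 counts, were fitted together by group with edgeR 4.0.16 under R 4.3.3, using filterByExpr (minimum count 10, total 15), TMM scaling (factors 0.959 to 1.03), robust glmQLFit, glmQLFTest and Benjamini-Hochberg adjustment at 0.05. CPM values use TMM-scaled library totals. The absolute log2 fold change over the square root of F gave its SE, and intervals of 95% came from that SE. Replicates differed by more than sampling noise (chi-square per degree of freedom 3.21 to 29.2), so that none was merged. Ratios came from counts, with 0.5 added to each before the log2 in tests by exact permutation (SciPy 1.17.1). Exon lengths and the gene order on distal chromosome 7 came from GENCODE M21, chromosomes, promoters and microRNAs from RefSeq GRCm38.p6, and no gene coordinates are given on the files' build.

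Named genes were all members, up to 3 genes per direction of each list and comparison by fold change among called genes whose higher group averaged 5 CPM or more, and the 5 genes most like Igf2 and H19. Kcnq1ot1, Igf2os, Mrpl23, Ctcf, Zfp57, Hand1, Vim, Col1a1, Des, Airn, Igf1, Ins1, Ins2, Mir675, Mir483, Tpbpa, Prl3d1, Fap, Dcn, Lum and Pou5f1 were named beyond that rule, after their values were seen. A gene that this rule names is not reported here. The fit was tested on simulated data. Alternatives were RLE, upper-quartile and unscaled totals, no filter, 5 CPM in 3 libraries, DESeq2 1.42.0, limma-voom 3.58.1, a replicate-number block, a fit of the 6 libraries in question, each library left out and other pseudocounts. A fit without the 13 mitochondrial protein genes and Gm26917 was chosen after seeing the data.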

Additional observations from a re-analysis of the deposited data

How the results depend on the processing

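Over 19 alternatives, 538 of 570 member fold changes kept their direction and side of the threshold, 23 gained a call, 4 lost it and 5 reversed, and 25 of the 30 member results had no change of call. The reversals were of values near 0 that were not called. Igf2r in EWS-OCT4 against J1 was 0.00497 without EWS-OCT4 replicate 3, 0.00834 without J1 replicate 1 and 0.0195 without J1 replicate 3, in a range of -0.0953 to 0.0195 over the libraries left out. Igf2bp1 in OCT4 against J1 was -0.0479 without OCT4 replicate 2 and -0.0424 without J1 replicate 1, in a range of -0.0479 to 0.0652. The 4 lost calls were of Igf2r in OCT4 against J1. Igf2r and Igf1r in EWS-OCT4 against OCT4, both just above the threshold, were called in 10 and 7 of the 19 alternatives, with adjusted p from 0.00231 to 0.246 and from 0.0128 to 0.356.

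Members called ranged from 8 to 10 for EWS-OCT4 against OCT4, stayed at 9 for EWS-OCT4 against J1 and ranged from 6 to 9 for OCT4 against J1. Without 1 library, the log2 ratio difference ran from 2.31 to 2.44, 7.19 to 8.27 and 4.83 to 5.91 for those comparisons. The largest shift of the median of all genes under another scaling was -0.0806 in log2, for EWS-OCT4 against J1 with library totals alone. Less the chromosome medians, 11 of 30 member values moved by more than the spread between replicates. Of the values that were called, 0 reversed, and Insr in OCT4 against J1, which was not called, changed sign to 0.29.

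With the replicate number as a block, 10, 9 and 8 members and 11246, 10534 and 11356 genes were called, in place of 8, 9 and 7 members and 11012, 10249 and 11098 genes. The ratio differences were then the same, with exact p = 0.25, the smallest that 3 pairs allow. Same-numbered libraries correlated by -3.17e-05 to 0.0737 after group means were removed, and differently numbered ones by -0.0644 to 0.0334. In both other groups at once, 4 of 9 libraries correlated best with their own number. Whether the numbers mark pairs was not settled by these values, and the main fit used no pairing. Depth limits Igf2 in J1, where 14 to 32 counts stand behind each value.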
